A study of Homo sapiens with 12 samples.

Results

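The genes described here are 8 cancer-testis antigens: DDX43, PRAME, MAGEA1, MAGEA4, MAGEA10, MAGEC1, MAGEC2 and CTAG2. They were taken by gene symbol, and all 8 were measured among 18334 named genes. The set was chosen by the high DDX43 value in Panc1, so the contrast of Panc1 with HT29 is given below as values with no test, and nothing is read from it. The set had no threshold on the measured values.

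Cancer-testis antigens are proteins made mainly in the germ cells of the testis, or in the placenta, and made again by some tumours. Many of their genes lie on the X chromosome in families of near-identical copies, and in most adult tissues they are held silent, often with methylated promoters. Because normal tissues outside the testis show little of them, several have been used as targets of tumour vaccines and of engineered T cells.

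Total RNA of 8 established human tumour lines was measured on 12 two-colour arrays. Per the labels, cell line RNA was marked with Cy5 and a reference RNA, of whole human origin and the same throughout, with Cy3. MiaPaca2 had 2 arrays with DMSO (a solvent) as the media label and 1 without a media label, Panc1 and HT29 had 2 DMSO arrays each, and a single array with no media label came from each of HPAC, Capan2, HPAFII, SW620 and HCT-116. MiaPaca2, Panc1, Capan2, HPAC and HPAFII are catalogued as pancreatic lines and HCT-116, HT29 and SW620 as colorectal lines; the series describes all of them as pancreatic.

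Values are the deposited log ratios, read here on a log2 scale with the cell line over the reference, so that 0 is the level of the reference. This direction is likely from the dyes but is not stated, and with the opposite direction every sign below would turn. The level of one gene cannot be set against that of another on this scale. No intensities were given, so a ratio from a dim feature cannot be told from a bright one. The labels do not say whether arrays of a line came from separate cultures, so each p-value rests on array-to-array spread that may be technical only, and the number of arrays limits the precision. Fewer cells with an RNA and less of that RNA per cell cannot be told apart in such samples.

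Array medians lay between -0.001 and 0.042. The correlation across genes was 0.874 to 0.941 within a DMSO pair and 0.370 to 0.731 between lines. The unlabelled MiaPaca2 array correlated at 0.836 to 0.860 with the DMSO arrays of that line, and it read lower than both for 7 of the 8 genes, all but CTAG2, against 39.9% of all genes. The HPAFII array had the widest spread over genes (SD 1.54, against 1.08 to 1.29 on the other arrays). HPAFII was the lowest line for 5 of the 8 genes, against 20.2% of all genes, and for none after quantile normalization. Of 6 epithelial markers, all 6 were above the reference in Capan2, HPAC, HPAFII, HCT-116 and HT29, 5 in SW620, 2 in Panc1 and 1 in MiaPaca2. The 5 leukocyte markers were mixed. PTPRC, the common leukocyte antigen gene, lay below the reference on all 12 arrays and LCP1 on 11. CD68 lay below it on 6 arrays, CD3E on 2 and CD14 on 0.

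Most of the set lay far below the reference. PRAME, MAGEA1, MAGEA10, MAGEC1 and MAGEC2 were below 0 on all 12 arrays, which is 5 of 8 genes, against 11.1% of all genes. MAGEA10, MAGEC1 and MAGEC2 were also below -2 on all 12 arrays, against 1.54% of all genes. The exceptions were DDX43 in Panc1 and Capan2, MAGEA4 in HCT-116, and CTAG2, which stayed near 0. Over the 8 lines the line means of DDX43 spanned 9.32, those of MAGEA1 4.59, of MAGEA4 4.52 and of PRAME 3.99, whereas those of the other 4 genes spanned 0.97 to 1.60. These are 4 of 8 genes with a span of at least 2, against 34.3% of all genes.

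**Figure D1:**
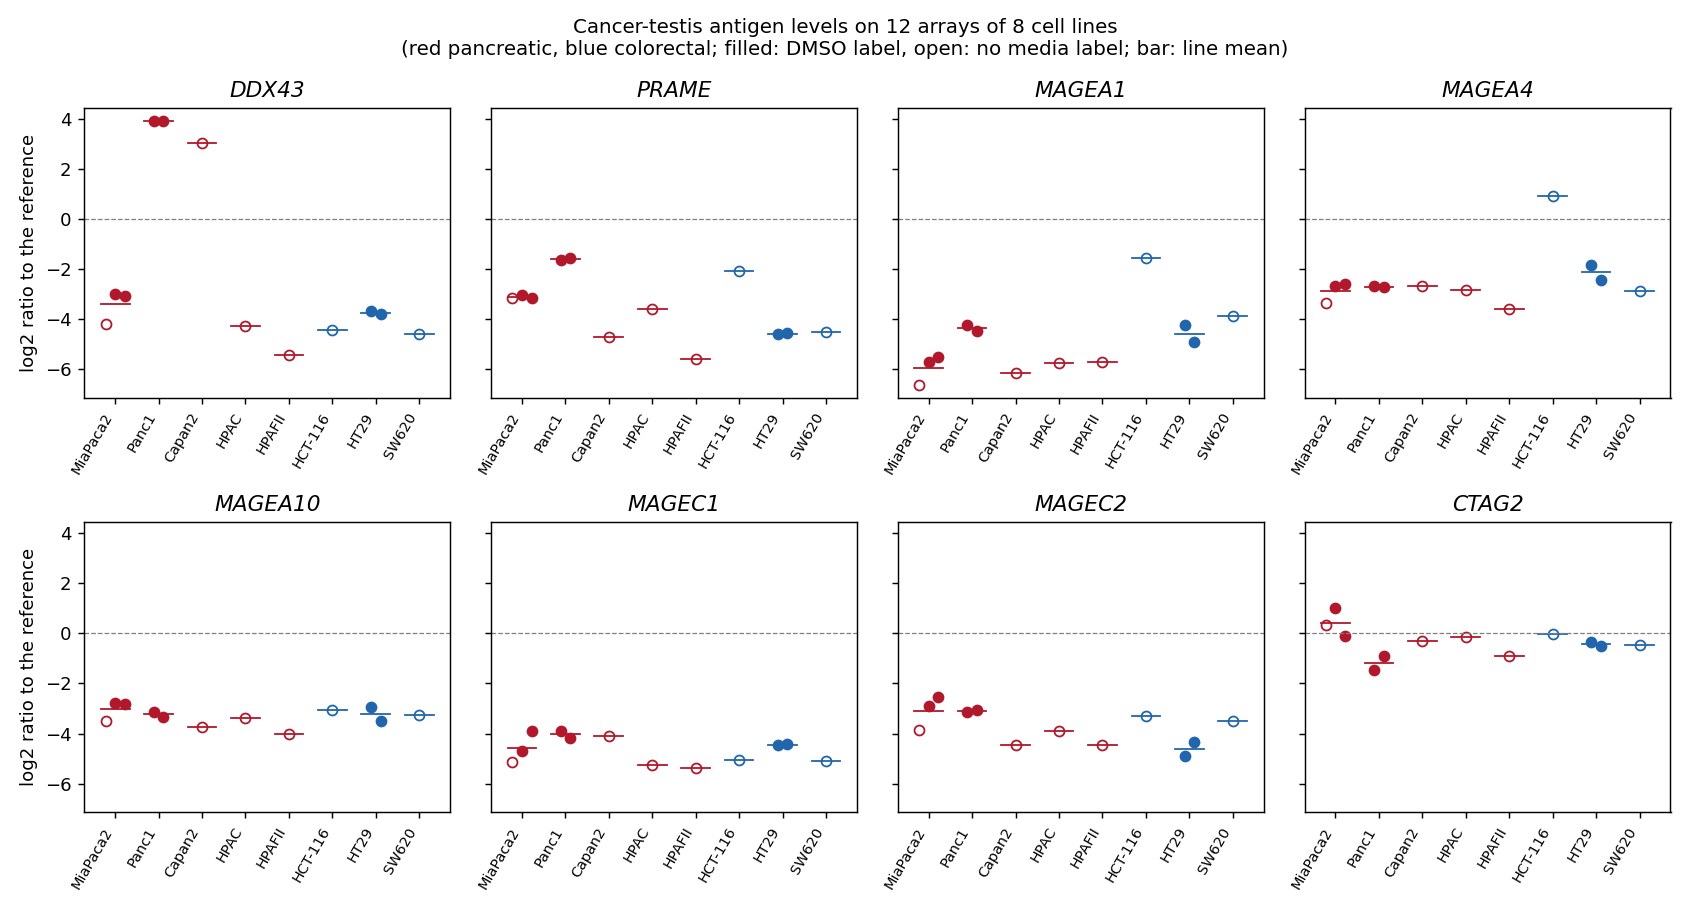
Log2 ratio to the reference (vertical axis) of each of the 8 genes in 8 cell lines (horizontal axis), with pancreatic lines in red and colorectal lines in blue. Filled points are DMSO arrays, open points arrays without a media label, and bars line means. DDX43 stands at 3.90 in Panc1 and 3.01 in Capan2 and at most at -2.99 elsewhere, and MAGEA4 is above 0 only in HCT-116, at 0.914.

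DDX43 encodes a DEAD-box protein, an ATP-dependent RNA helicase found in germ cells. It had log2 ratios of 3.92 and 3.89 on the Panc1 arrays and 3.01 on the Capan2 array. On the other 9 arrays it lay between -5.41 and -2.99, with the 2 MiaPaca2 DMSO arrays at -2.99 and -3.07, the unlabelled MiaPaca2 array at -4.18, and the HT29 arrays at -3.69 and -3.81. HPAC stood at -4.27, HCT-116 at -4.45, SW620 at -4.61 and HPAFII at -5.41. The lines thus fell into a high pair and a low group of 6, with a gap of 6.43 between Capan2 and the next line, MiaPaca2, where the arrays of 1 DMSO pair differed by at most 0.119. Each step in the order of lines was wider than that, but the MiaPaca2 arrays with and without the DMSO label differed by more than each step within the low group. Capan2 had 1 array, so its high level has no replicate.

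OOEP lies next to DDX43 on chromosome 6 and encodes an oocyte protein of the maternal complex under the egg membrane. Among the 6295 genes whose line means spanned at least 2, its pattern over the 8 lines was the most like that of DDX43 (Pearson r = 0.980 over 8 line means, which share the reference channel). OOEP had log2 ratios of 2.63 and 2.57 in Panc1 and 2.70 in Capan2. On the other 9 arrays it lay between -2.25 and 0.019, and the MiaPaca2 DMSO arrays differed by 1.55, at 0.019 and -1.53. The next genes in likeness were SFRP1, a secreted Wnt antagonist gene (r = 0.975), and MIR503HG, a host gene of microRNAs (r = 0.957). CGAS, the cytosolic DNA sensor gene on the other side of DDX43, did not share the pattern (r = 0.396), being at 1.59 to 2.70 in the 5 pancreatic lines and HT29 and at -1.49 and -1.98 in HCT-116 and SW620.

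DDX43 and OOEP are transcribed from opposite strands, and their starts are 24931 bases apart. The 250 bases before each start are shown because the genes were high in the same 2 lines. They come from RefSeq on GRCh38.p14, run 5′ to 3′ along the gene's strand, and have CG pairs, the letters that DNA methylation acts on, in capitals.
DDX43, chr6:73394578-73394827, plus strand: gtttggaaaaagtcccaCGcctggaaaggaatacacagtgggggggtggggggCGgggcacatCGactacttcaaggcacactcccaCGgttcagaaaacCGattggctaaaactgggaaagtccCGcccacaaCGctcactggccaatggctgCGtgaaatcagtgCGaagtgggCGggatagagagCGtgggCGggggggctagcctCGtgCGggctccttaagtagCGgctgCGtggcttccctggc
OOEP, chr6:73369898-73370147, minus strand: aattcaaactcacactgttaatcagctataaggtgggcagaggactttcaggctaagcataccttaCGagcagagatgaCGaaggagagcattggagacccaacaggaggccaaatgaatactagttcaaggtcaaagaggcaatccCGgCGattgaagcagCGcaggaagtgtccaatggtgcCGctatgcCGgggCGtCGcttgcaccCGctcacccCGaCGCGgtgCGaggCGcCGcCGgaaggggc
The DDX43 window holds 16 CG pairs and the OOEP window 17, against a median of 11 over 35116 windows of this length. Fewer CG pairs were held by 59.04% of windows than by that of DDX43, and by 61.05% than by that of OOEP, so neither count is unusual. No methylation was measured here.

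**Figure D2:**
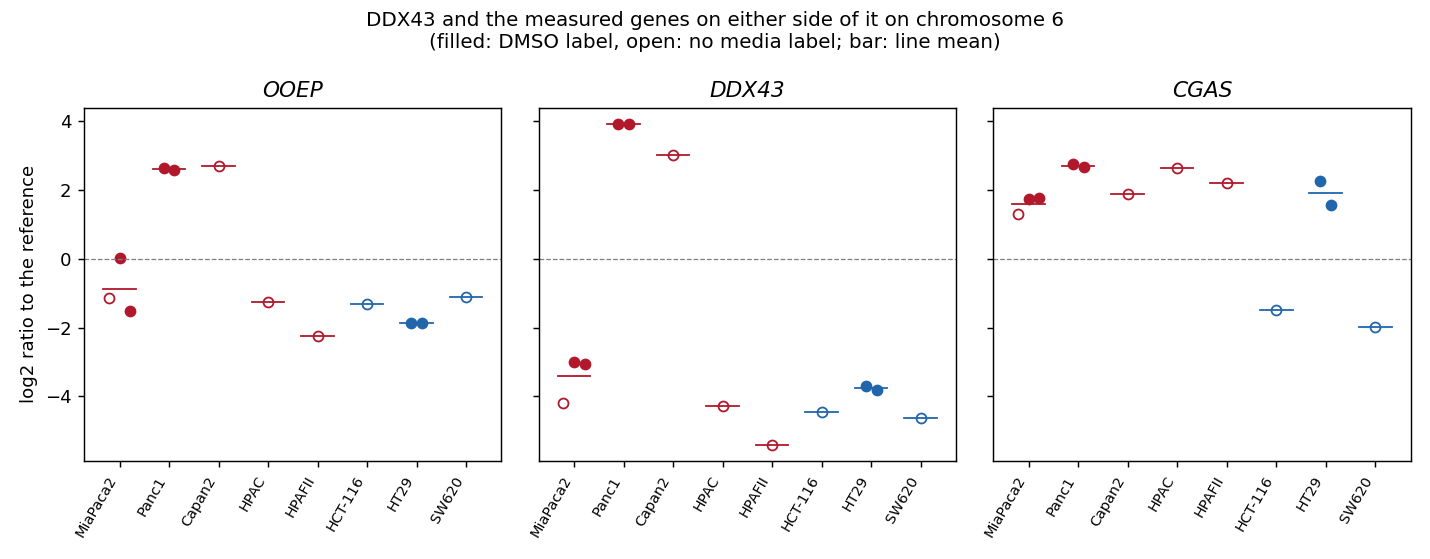
Log2 ratio to the reference (vertical axis) of OOEP, DDX43 and CGAS, which lie in this order on chromosome 6, in 8 cell lines (horizontal axis). Filled points are DMSO arrays, open points arrays without a media label, and bars line means. OOEP and DDX43 are both high in Panc1 and Capan2, whereas CGAS is low in HCT-116 and SW620.

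PRAME encodes a leucine-rich repeat protein that recruits substrates to a cullin ubiquitin ligase and can repress retinoic acid receptor signalling. Averaged over its 2 features, it had log2 ratios of -1.63 and -1.57 in Panc1 and -2.09 in HCT-116. MiaPaca2 had -3.04 and -3.16 on the DMSO arrays and -3.17 on the unlabelled one, and HPAC had -3.60. SW620 at -4.51, HT29 at -4.60 and -4.56, Capan2 at -4.70 and HPAFII at -5.58 formed the low end. SW620 and HT29 were the only neighbours in this order closer than the widest gap within a DMSO pair, 0.122. The features disagreed on the highest line: one read -1.30 in HCT-116, above -1.92 and -1.63 in Panc1, and the other -2.88 in HCT-116, below -1.34 and -1.51 in Panc1. They agreed in order for the DMSO groups but not in size, with Panc1 minus HT29 at 4.43 for one and 1.52 for the other. The genes most like PRAME over the lines were SHC2 (r = 0.979), the heme oxygenase gene HMOX1 (r = 0.962) and TLL2 (r = 0.959).

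MAGEA1 and MAGEA4, members of the MAGE family whose proteins bind RING-type ubiquitin ligases, were highest in HCT-116. MAGEA1 had a log2 ratio of -1.55 there and -3.89 in SW620. It had -4.23 and -4.48 in Panc1 and -4.23 and -4.93 in HT29, and these arrays overlapped. HPAFII, HPAC, MiaPaca2 and Capan2 lay between -6.13 and -5.71 as line means, with no step wider than the gap of 0.693 within the HT29 pair. MAGEA4 had 0.914 in HCT-116, and its other 11 arrays lay between -3.61 and -1.85. HT29 came next with -1.85 and -2.42, and from HT29 down to MiaPaca2 no step exceeded the widest gap within a pair, 0.570. HPAFII stood lowest at -3.61, 0.732 below MiaPaca2. Over the 8 lines the pair correlated at r = 0.86.

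Genes with the pattern of MAGEA1 were KSR2 (r = 0.955), AGAP2 (r = 0.951) and IRX4 (r = 0.941). Those with the pattern of MAGEA4 were FES, a tyrosine kinase gene (r = 0.997), MAGEA2B (r = 0.990) and GTSF1, which encodes a factor of the germ-line piRNA pathway (r = 0.989). GTSF1 stood at 2.34 in HCT-116, against at most -2.98 on each other array.

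The remaining 4 genes had narrower spans over the lines, of 0.97 to 1.60. Each whole span was still wider than the widest gap within a pair for that gene. MAGEC2 and CTAG2 were each called in a comparison of DMSO pairs below. MAGEA10 lay between -4.01 and -2.78 on the 12 arrays, and no step in its order of lines exceeded the widest gap within a pair, 0.554. MAGEC1 lay between -5.36 and -3.88 and MAGEC2, whose protein activates the ubiquitin ligase TRIM28, between -4.91 and -2.53, again with no step above the widest pair gap. CTAG2, a close relative of the NY-ESO-1 genes CTAG1A and CTAG1B, was the only member near the reference. It had 1.02 and -0.088 on the MiaPaca2 DMSO arrays, 0.336 on the unlabelled one, and -1.47 and -0.893 in Panc1. In the other 6 lines CTAG2 lay between -0.908 and -0.029. A gap of 1.11 within the MiaPaca2 pair was wider than each step between neighbouring lines.

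Genes beside the X-linked members on the chromosome were like them to different degrees. MAGEC3, next to MAGEC1, correlated with it at r = 0.805 and GABRA3, next to MAGEA10, at r = 0.651 over the 8 line means, with spans of 1.43 and 0.485, and the other measured neighbours outside the set at -0.464 to 0.476. GAB3, next to CTAG2, stood at 1.68 and 1.83 in Panc1, where CTAG2 was lowest, and at -2.80 to -1.48 elsewhere. MAGEA5P, next to MAGEA10, was at 1.41 in HCT-116, against -1.45 to -0.979 as means of the other lines. GABRE, next to MAGEA4, was highest in Capan2 at 0.372 and stood at -3.03 in HCT-116.

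In the wider families most X-linked genes were low as well. A list of 108 other X-linked cancer-testis genes had 58 measured. Of these, 35 (60.3%) lay below 0 on all 12 arrays and 11 below -2, and the median of their mean levels was -1.33. A list of autosomal cancer-testis and germ cell genes, 80 measured, had 18 (22.5%) below 0 on all arrays and a median of 0.085, against 0.021 for all genes.

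The line with the most X-linked genes above 0 was HCT-116, with 16 of 58, against 8 to 14 in the other lines. In HCT-116 MAGEA1 and MAGEA4, and 8 of the 58 X-linked genes (13.8%), were higher by at least 1 than in each other line, against 1.52% of all genes. The same 8 genes had that lead after quantile normalization. They were MAGEB2 at 3.65, PAGE4 at 2.49, MAGEA5P at 1.41, MAGEA2B at 0.446, MAGEA12 at 0.083, MAGEA6 at -0.077, CSAG1 at -0.260 and CT45A1 at -0.528. The lead of CT45A1, 1.33, was narrower than the widest gap within a DMSO pair, 2.01. Of MAGEA2B, MAGEA12 and MAGEA6 every other array read between -5.32 and -2.49. MAGEB2 was also above 0 in SW620, at 0.904, and lay at -3.20 to -1.75 on the arrays of the other lines. MAGEA2B and MAGEA6 have near-identical copies, MAGEA2 and MAGEA3, whose RNA the features may not tell apart. Among the autosomal genes DMRT1, a testis-determining transcription factor gene, was at 3.56 in HCT-116 and between -0.028 and 0.689 on the other arrays. HCT-116 had 1 array, so these levels have no replicate.

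Other lines led in fewer of the X-linked genes. CT83 stood at 3.26 in HPAC and between -5.16 and -3.66 on the other 11 arrays, a lead of 7.19 over the next line mean. SW620 led by at least 1 in MAGEB6 (0.942), VCX (-2.47) and VCX3A (-2.40), which are 3 of 58 genes against 1.35% of all genes. HPAFII led in PAGE5, 1 of 58 genes, against 1.47% of all genes. Panc1, Capan2, MiaPaca2 and HT29 led in none of the 58, against 2.6%, 1.05%, 0.584% and 0.665% of all genes, and in HPAC the share of all genes was 0.889%.

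**Figure D3:**
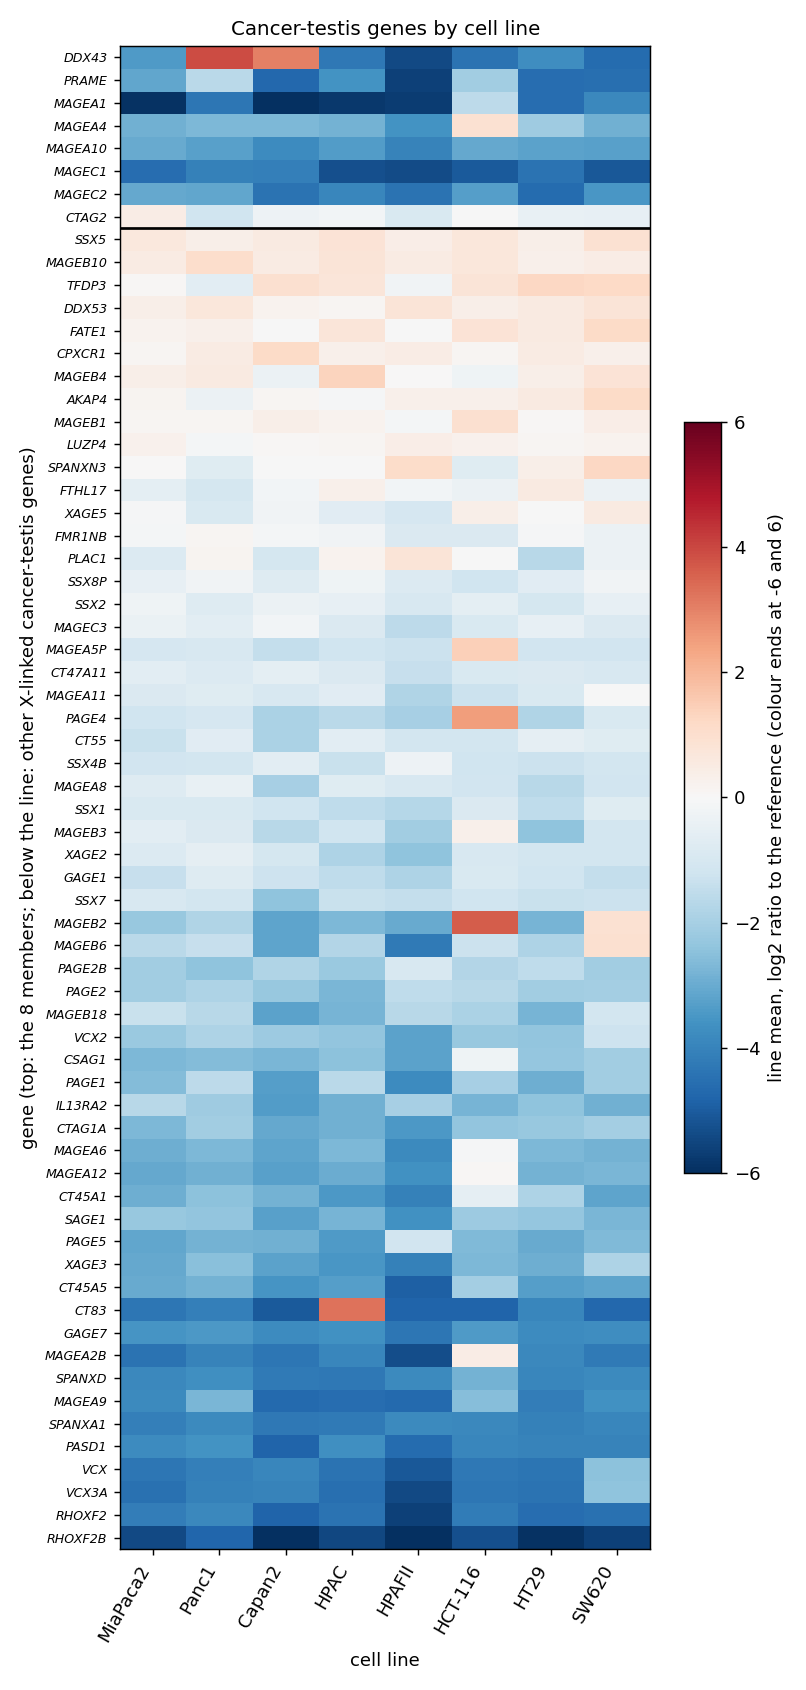
Line means (colour, log2 ratio to the reference, blue below and red above 0, with colours ending at -6 and 6) of the 8 genes above the black line and 58 other X-linked cancer-testis genes below it, by cell line (horizontal axis). Red cells stand out in HCT-116 for MAGEB2 (3.65) and PAGE4 (2.49), in HPAC for CT83 (3.26) and in Panc1 and Capan2 for DDX43.

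Promoter windows of several MAGE genes, from the same RefSeq table, share a short run of letters. Of the 8 genes, 5 had an entry; MAGEA1, MAGEA10 and CTAG2 had none. The run CCGGATGT was picked after the MAGE windows had been read, so its presence there is no test. On either strand it occurs in 0.592% of 35116 windows. It is in capitals below in genes that were high in HCT-116 (MAGEA4 from the first of 5 starts, MAGEA2B and MAGEB2) and in genes that were low in every line (MAGEC1 and MAGEC2).
MAGEA4, chrX:151912224-151912473, plus strand: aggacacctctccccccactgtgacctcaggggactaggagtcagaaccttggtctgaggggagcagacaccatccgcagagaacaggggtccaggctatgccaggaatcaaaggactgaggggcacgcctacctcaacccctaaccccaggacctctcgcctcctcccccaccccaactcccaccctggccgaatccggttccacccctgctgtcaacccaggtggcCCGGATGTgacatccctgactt
MAGEA2B, chrX:152714378-152714627, plus strand: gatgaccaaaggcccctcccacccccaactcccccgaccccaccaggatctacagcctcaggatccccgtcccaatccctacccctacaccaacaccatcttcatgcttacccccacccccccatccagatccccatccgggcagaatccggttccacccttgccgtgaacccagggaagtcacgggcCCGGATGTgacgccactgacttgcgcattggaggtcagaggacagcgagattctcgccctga
MAGEB2, chrX:30215313-30215562, plus strand: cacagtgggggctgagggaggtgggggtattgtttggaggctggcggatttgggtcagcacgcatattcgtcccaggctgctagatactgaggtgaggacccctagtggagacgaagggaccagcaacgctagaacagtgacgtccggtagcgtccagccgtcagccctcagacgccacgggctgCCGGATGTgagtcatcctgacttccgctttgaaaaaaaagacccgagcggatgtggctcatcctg
MAGEC1, chrX:141903644-141903893, plus strand: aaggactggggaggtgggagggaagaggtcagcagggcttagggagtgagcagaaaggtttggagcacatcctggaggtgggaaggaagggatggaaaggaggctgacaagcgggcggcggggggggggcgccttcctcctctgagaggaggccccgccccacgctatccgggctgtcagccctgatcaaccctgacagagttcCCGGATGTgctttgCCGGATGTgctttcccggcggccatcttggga
MAGEC2, chrX:142205291-142205540, minus strand: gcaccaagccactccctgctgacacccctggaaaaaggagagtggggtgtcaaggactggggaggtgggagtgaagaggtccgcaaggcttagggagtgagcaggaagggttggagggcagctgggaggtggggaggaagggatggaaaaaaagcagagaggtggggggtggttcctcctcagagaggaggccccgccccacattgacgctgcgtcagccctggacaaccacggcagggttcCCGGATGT
MAGEC1 holds 2 matches and the other windows shown 1 each. MAGEA12, also highest in HCT-116, holds 1 match before each of its 2 starts and is not shown. The windows of MAGEA6 and PAGE4, also highest in HCT-116, and of CT83, DDX43, OOEP and PRAME hold none. The run was thus present before MAGE genes that were high in HCT-116 and before MAGE genes that were low in every line, and windows without it occurred among the genes high in HCT-116.

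The difference of MiaPaca2 from HT29 does not use the Panc1 levels, although the Panc1 pair is 1 of the 3 DMSO pairs from which its error was estimated. It does use the HT29 levels, 1 side of the contrast behind the choice of the set. The DDX43 test is thus not independent of that choice, and nothing is concluded from it. Genes are called here at an adjusted p under 0.05 in limma, a linear model with shared variances, two-sided and with Benjamini-Hochberg adjustment over 18334 genes. DDX43, PRAME and MAGEC2 were higher in MiaPaca2 and MAGEA1 lower. With DDX43 counted this is 4 of 8 genes called, against 31.9% of all genes. As DDX43 stands behind the choice of the set, nothing is read from this share. Without DDX43 there were 3 called genes, PRAME, MAGEC2 and MAGEA1. MAGEC2 had -2.89 and -2.53 in MiaPaca2, against -4.91 and -4.33 in HT29, a difference of 1.91 (SE 0.267, limma adjusted p = 0.001014). PRAME differed by 1.48 (SE 0.208, limma adjusted p = 0.001053), and its features by 2.31 and 0.648. MAGEA1 had -5.71 and -5.52 in MiaPaca2, against -4.23 and -4.93 in HT29, a difference of -1.04 (SE 0.278, limma adjusted p = 0.02223). DDX43 differed by 0.72 (SE 0.208, limma adjusted p = 0.03045), small beside its span over the lines, and its call rests on the Panc1 arrays as well: with no Panc1 array in the fit, an alternative added after seeing the data, the limma adjusted p was 0.08307 and the other 3 genes were called. The groups of these 4 genes did not overlap, nor did those of MAGEA4, MAGEA10 and CTAG2, which were not called. The share of all genes without overlap is not given here, so nothing is read from this. All 6 epithelial markers were lower in MiaPaca2 as well, with line means that summed to -11.1, against 11.2 in HT29, and of 5 mesenchymal markers VIM (6.76) and ZEB1 (3.22) were higher and none lower. Of 6 fibroblast markers 3 were higher, and of 5 leukocyte markers 1. The part of these markers in the differences was not tested.

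MAGEA4 differed by -0.50, MAGEA10 by 0.40, MAGEC1 by 0.16 and CTAG2 by 0.90, and none of these passed (limma adjusted p = 0.1707, 0.2681, 0.725 and 0.1012). The DDX43 call was lost with quantile normalization (0.25), with the 3 MiaPaca2 arrays as 1 group (0.33), without MiaPaca2 replicate 1 (0.68), and without HT29 replicate 2 (0.78) or 4 (0.66). The MAGEA1 call was lost without HT29 replicate 2 (-0.69) or without MiaPaca2 replicate 1 (-0.94) or 2 (-1.13), MAGEA4 was called with quantile normalization (-0.85) and CTAG2 without MiaPaca2 replicate 2 (1.46).

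Of the 58 X-linked genes, 5 were higher in MiaPaca2 than in HT29 and 2 lower, against 17.4% and 14.5% of all genes. MAGEB3 (2.16), MAGEB18 (1.39), PAGE4 (0.93), SSX2 (0.86) and MAGEA8 (0.85) were higher, and TFDP3 (-1.24) and CT55 (-1.07) lower. MAGEB18 alone among these 7 kept its call under every alternative run. With quantile normalization or without MiaPaca2 replicate 2, 1 X-linked gene was higher, with the 3 MiaPaca2 arrays as 1 group 3 were higher, without HT29 replicate 2 none was lower, and with no Panc1 array in the fit 1 was lower. Of 80 autosomal genes 12 were higher and 4 lower. CABYR, which encodes a calcium-binding protein of the sperm tail, differed most, with 1.83 and 2.31 in MiaPaca2, against -2.32 and -2.67 in HT29, a difference of 4.57 (SE 0.253, limma adjusted p = 8.342e-06). TEX15 (2.71), the mitotic kinase gene PBK (1.72), LDHC (1.57), the testis form of lactate dehydrogenase, and ODF2 (1.29) were also higher. OIP5 (-2.12), SPAG1 (-2.01), the meiotic cohesin gene STAG3 (-1.56) and ATAD2 (-1.51) were lower, and the SPAG1 call was lost without HT29 replicate 2 (-2.07) or 4 (-1.96). Median differences were 0.19 for the X-linked and 0.099 for the autosomal list, against 0.027 for all genes.

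Lists of genes that work with the set, or are of its families, had shares called on both sides of the 31.9% of all genes: 36.4% of the type II MAGE genes, 50% of the ligase and partner genes, 56% of the retinoic acid genes, and 29.7% of both the methylation and the helicase genes. Of 11 ubiquitously expressed MAGE genes of the type II group, 4 were higher in MiaPaca2 and none lower, with MAGEH1 at 0.791 and 0.941 in MiaPaca2, against -4.81 on both HT29 arrays (difference 5.68, SE 0.215, limma adjusted p = 2.933e-06). At an unadjusted limma p under 0.05 there were 5 of the 11, all higher, against 42.05% of all genes. MAGED4B was higher by 2.36. Of 20 ubiquitin ligases and partners bound by MAGE proteins or PRAME, 4 were higher and 6 lower, TRIM31 at -3.06 and LNX1 at -1.70 among them. Of 25 retinoic acid genes, 4 were higher and 10 lower, with RARRES1 at -4.66 and ALDH1A3, which makes retinoic acid, at 2.56. Of 37 genes of DNA methylation and silencing, 8 were higher and 3 lower; the demethylating enzyme gene TET1 was higher by 1.70, and MBD2, a reader of methylated DNA, was at -2.04. Of 37 other DEAD-box and related helicase genes 11 were higher, DDX42 by 1.66, and none lower (15 higher and 2 lower at an unadjusted limma p under 0.05). Without HT29 replicate 2, none of the ligase and partner genes was called higher and 2 were called lower, 5 methylation genes were higher and 1 type II MAGE gene was lower. The ligase and partner genes called higher were 2 without MiaPaca2 replicate 2, with quantile normalization, with no Panc1 array in the fit, or with the 3 MiaPaca2 arrays as 1 group. The helicase count was 6 without HT29 replicate 4 and 7 without MiaPaca2 replicate 2.

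Between the 2 pancreatic lines with DMSO pairs, MiaPaca2 and Panc1, PRAME and MAGEA1 were lower in MiaPaca2 and CTAG2 was higher. These are 3 of the 7 genes tested, against 18.7% of all genes called. DDX43, chosen for its level in Panc1, was not tested and differed by -6.93. PRAME had -3.04 and -3.16 in MiaPaca2, against -1.63 and -1.57 in Panc1, a difference of -1.50 (SE 0.208, limma adjusted p = 0.001822). MAGEA1 differed by -1.26 (SE 0.278, limma adjusted p = 0.01616) and CTAG2 by 1.65 (SE 0.371, limma adjusted p = 0.0177). The groups of these 3 genes did not overlap, nor did those of MAGEA10 and MAGEC2, which were not called. Nothing is read from this, as the share of all genes without overlap is not given here. In the same comparison 3 of 6 epithelial markers were lower, EPCAM (-4.66) and CDH1 (-2.40) among them. The other 3 were not called but were higher in MiaPaca2 at an unadjusted limma p under 0.05, which 31.64% of all genes passed. Line means of the 6 summed to -11.1 in MiaPaca2, against -1.98 in Panc1. Of 5 mesenchymal markers ZEB1 (1.44) was higher and CDH2 (-3.79) lower, and of 6 fibroblast markers 2 were higher and 2 lower. The part of these markers in the differences was not tested. MAGEA4 (0.069), MAGEA10 (0.43), MAGEC1 (-0.26) and MAGEC2 (0.39) did not pass, with limma adjusted p between 0.2929 and 0.8918. The MAGEA1 call was lost without MiaPaca2 replicate 1 (-1.16) or without Panc1 replicate 1 (-1.13) or 4 (-1.38), and the CTAG2 call without MiaPaca2 replicate 1 (1.09) or Panc1 replicate 1 (1.36).

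No X-linked list gene was called between MiaPaca2 and Panc1 by limma; at an unadjusted p under 0.05, 2 of 58 were higher and 6 lower, against 31.64% of all genes in either direction. In the fit with replicate number as a block, added after seeing the data, 3 were higher and 3 lower. With robust eBayes 1 was lower, with the 3 MiaPaca2 arrays as 1 group 2 were lower, and with the most variable feature 1 was higher. Some fits without 1 array also called X-linked genes. Of 80 autosomal genes 3 were higher and 5 lower, against 7.4% and 11.3% of all genes. LY6K, a surface protein gene, had -2.64 and -2.55 in MiaPaca2, against -0.372 and -0.227 in Panc1, and differed by -2.30 (SE 0.211, limma adjusted p = 0.0002131). COX6B2, a testis form of a respiratory chain subunit gene, was at -1.35. These 2 kept their calls under every alternative run. PBK (1.20), ROPN1B (0.99), STAG3 (-1.003) and the meiotic genes REC8 (-0.99) and MSH4 (-0.84) lost theirs when either Panc1 array was left out. LEMD1 (1.29) lost its call without Panc1 replicate 1 (0.99). Leaving out either MiaPaca2 array also lost the calls of LEMD1, PBK, STAG3 and MSH4. In the fit with replicate number as a block, LEMD1, PBK, ROPN1B, REC8 and MSH4 lost theirs, and STAG3 did with quantile normalization. In the same comparison ALDH1A1 was higher by 6.94 among 25 retinoic acid genes, 3 of them higher and 5 lower. MBD2 was at -2.51 among 37 methylation and silencing genes, 2 higher and 3 lower, and TRO at -2.15 and MAGEF1 at 1.61 were the called genes of the 11 type II MAGE genes. The RNA sensor gene RIGI was at -2.24 among 37 helicase genes, 6 higher and 2 lower. Without Panc1 replicate 1, 1 autosomal gene was higher and 2 lower, 1 retinoic acid gene was higher and 2 lower, no methylation gene was higher and 1 was lower, and 2 helicase genes were higher and 1 lower. Without Panc1 replicate 4 or MiaPaca2 replicate 1, 3 helicase genes were higher and 1 lower and no methylation gene was higher. Without MiaPaca2 replicate 2, 1 autosomal and 1 retinoic acid gene were higher, and with quantile normalization 6 autosomal genes were.

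Panc1 against HT29 is the contrast behind the choice of the set. DDX43 differed by 7.65, PRAME by 2.98, MAGEC2 by 1.52, MAGEC1 by 0.42, MAGEA1 by 0.22, MAGEA10 by -0.028, MAGEA4 by -0.57 and CTAG2 by -0.74. Of all genes, 37.3% were called in this contrast. Among the wider lists the extremes were CABYR at 5.37, LY6K at 2.36, PLAC1, a placental gene, at 1.86, TFDP3 at -1.87 and LEMD1 at -1.85. The 3 comparisons share arrays in pairs, so their differences are not independent.

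**Figure D4:**
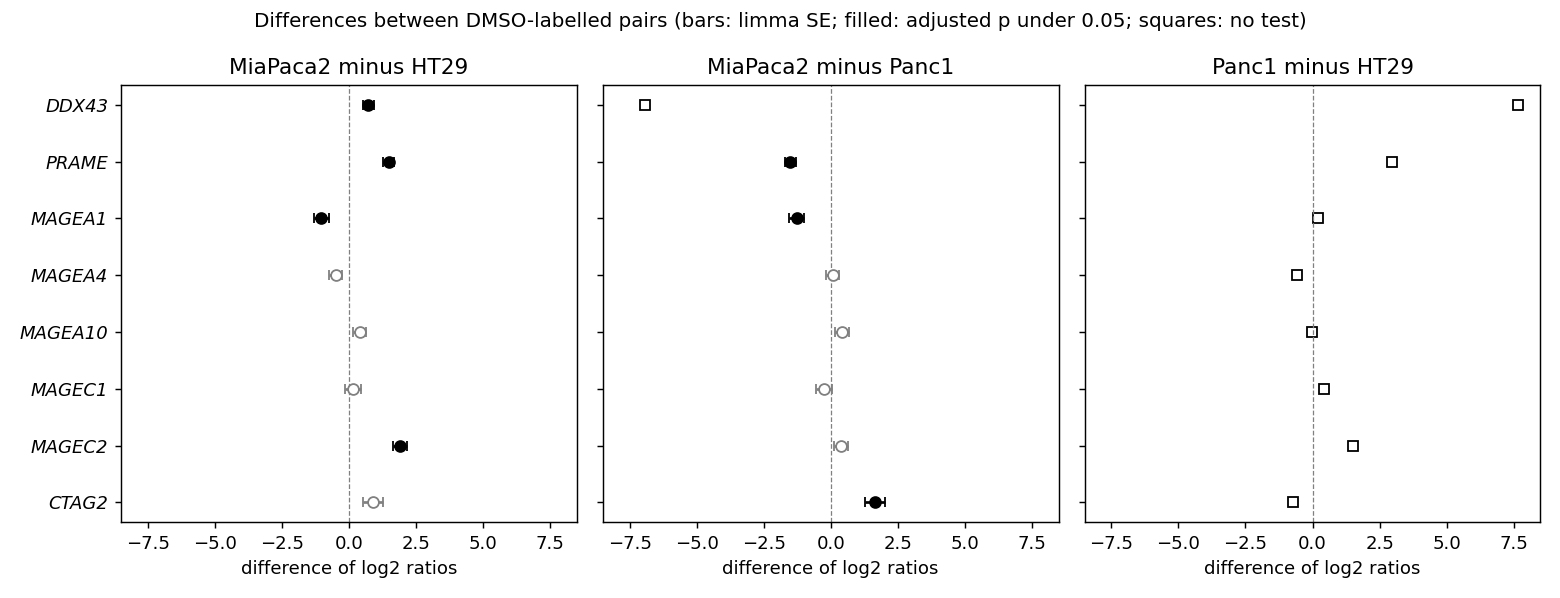
Differences of mean log2 ratios (horizontal axes) of the 8 genes (vertical axis) between DMSO pairs, n = 2 arrays per line. Bars are limma standard errors, filled circles genes called at an adjusted p under 0.05, open circles genes not called, and squares differences that were not tested. DDX43 differs by 0.72 between MiaPaca2 and HT29, by -6.93 between MiaPaca2 and Panc1 and by 7.65 between Panc1 and HT29.

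The 5 pancreatic lines were also compared with the 3 colorectal ones on line means, by catalogued origin. None of the 7 genes tested was called by limma, against 0.0218% of all genes. At an unadjusted p under 0.05 MAGEA1 alone was lower in pancreatic lines, with line means between -6.13 and -4.36, against -4.58 to -1.55 in colorectal lines (difference -2.25, SE 0.695, limma adjusted p = 0.4779). MAGEA4 differed by -1.58 (SE 0.766, limma adjusted p = 0.6422), with HCT-116 far above the other colorectal lines. The other 5 genes differed by -0.30 to 0.20. DDX43 was tested only without Panc1, although HT29, the other line of the contrast behind its choice, stayed in. It differed by 1.75 (SE 1.87, limma adjusted p = 0.8636). The 4 pancreatic lines had a mean of -2.52 ± 3.78 (SD) and the 3 colorectal lines -4.27 ± 0.460 (SD). No gene of the X-linked or autosomal list was called. At an unadjusted limma p under 0.05, 6 of 58 X-linked genes were lower in pancreatic lines and 2 of 80 autosomal genes higher, against 8.14% of all genes in either direction.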

How the data were processed

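The table deposited by the authors has 45220 features by 12 arrays and no intensities. From their range of -10.71 to 9.61 around medians near 0, its values were read as log2 ratios, which the authors had made from both dye channels before they deposited them. How the background was corrected, how arrays were normalized, the log base and which channel is on top are not stated in the labels. Features were named through the platform annotation: 31332 had 1 gene symbol, 93 several and 13795 none. Of the named features 31291 matched RefSeq by gene identifier. A gene was the mean of its features, which gave 18334 genes, and exact zeros (0.173% of named values) were kept.

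Tests used lmFit and eBayes of limma 3.58.1 (R 4.3.3). DMSO groups were compared in a fit of 12 arrays in 9 groups of line and media label, with 3 residual degrees of freedom and 5.23 from the prior. The comparison by origin used 8 line means, with 6 residual degrees of freedom and 2.25 from the prior. The fits were tested on simulated data. Neighbouring lines were called apart when their gap exceeded the widest gap within a DMSO pair. Likeness was Pearson's r over line means that span at least 2.

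The 8 genes and all lists were chosen with earlier results of these data known. The lists, with entries and measured genes, were other X-linked (108, 58) and autosomal cancer-testis genes (89, 80), type II MAGE genes (13, 11), MAGE or PRAME ligase partners (22, 20), retinoic acid (31, 25), methylation and silencing (40, 37), DEAD-box and related helicases (39, 37), and markers of epithelial, mesenchymal, leukocyte, endothelial, fibroblast and spermatid cells. Named genes were all 8 members and, per comparison, up to 5 called genes each way from the X-linked and autosomal lists and 2 from the others, the 3 genes most like a member, the measured neighbours by RefSeq order, and the 3 highest X-linked genes per line. Not all of these are printed. The genes with a lead in 1 line were chosen after their values were seen. Alternatives were array medians at 0, quantile normalization, the most variable feature, zeros as missing, robust eBayes, a filter on SD, other uses of the MiaPaca2 arrays, and leaving out each array or line. A fit without Panc1 arrays and one with replicate number as a block were added after the data were seen. Promoter sequences came from RefSeq (GRCh38.p14), and figures were drawn with matplotlib 3.10.9.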

Additional observations from a re-analysis of the deposited data

Results flagged for a closer look

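Of 49 genes checked over the 8 lines, 6 had a single line that stood apart from the other 7. The gap to the next line was a large share of the whole range (Dixon's test). The 49 were not all the genes named above. DMRT1, MAGEA12, MAGEA2B and MAGEA6, which led in HCT-116 by 2.595 to 4.314, are not in this list. The 6 genes were MAGEA4 in HCT-116 (0.914), MAGEA5P in HCT-116 (1.411), PAGE4 in HCT-116 (2.489), CT83 in HPAC (3.257), CPXCR1 in Capan2 (1.171) and LY6K in Panc1 (-0.2995). All but LY6K rest on 1 array of the line that stands apart, and CPXCR1 differed little in size, its other line means being 0.133 to 0.483.

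Over the 5 pancreatic lines, MAGEA1 stood apart as high in Panc1 (-4.357) and MAGEA4 as low in HPAFII (-3.606). The HPAFII array had the widest spread of all arrays, and after quantile normalization MAGEA4 was lowest in Panc1. DDX43 was not flagged, because 2 lines shared its high level. In all, 8 of 57 sets of line means were flagged. Many of these genes were picked for their levels or differences, among them 4 of the flagged ones as the highest X-linked genes of a line, so the chance rate of about 1 in 20 does not apply.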

How the results depend on the processing

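The DMSO groups share 1 replicate number each, and deviations of same-numbered arrays correlated across genes at 0.144 (number 2), -0.134 (number 1) and -0.0098 (number 4), so the numbers were not taken as pairs. A fit of the 6 DMSO arrays with replicate number as a block, added after seeing the data, has 1 residual degree of freedom. In it 3 members were called between MiaPaca2 and HT29, without DDX43 (0.68), and 17 list genes; between MiaPaca2 and Panc1 it called 3 members and 13 list genes, and MAGEA4 turned to -0.149, not called. The counts of called members and list genes stayed within 1.5 times of the reported ones in 75 of 81 settings. This share overstates how stable they are, because some counts could hardly move. The comparison by origin called no member or list gene, and at most 15 of all genes in any setting. A fit of only the 6 DMSO arrays gave the same calls as the reported one. All 6 counts that moved were from the 2 MiaPaca2 comparisons. Between MiaPaca2 and HT29 the 4 members called became 2 to 4 without 1 array (2 without HT29 replicate 2 or MiaPaca2 replicate 1), and the 23 list genes 15 to 23 (15 without HT29 replicate 2). Between MiaPaca2 and Panc1 the 3 members became 1 to 3 (1 without MiaPaca2 replicate 1 or Panc1 replicate 1), and the 8 list genes 3 to 9 (3 without Panc1 replicate 1). Over all genes, 3422 calls became 1661 or 1656 without a Panc1 array. In both comparisons, each fit without 1 array called fewer of all genes than the fit with all arrays. A lower count of members or list genes in such a fit is thus not particular to them. Pancreatic minus colorectal lines gave 4 calls, 15 with quantile normalization and 0 with robust eBayes.

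Members' differences kept direction and call in 250 of 282 settings, lost the call in 13 and gained it in 2. Those that changed sign were not called. MAGEC1 in MiaPaca2 minus HT29 turned to -0.13 (3 MiaPaca2 arrays) and -0.35 (quantile), and ranged from -0.24 (without MiaPaca2 replicate 2) to 0.56 (without replicate 1) when 1 array was left out. In MiaPaca2 minus Panc1 it turned to 0.091 (quantile) and ranged from -0.66 (without MiaPaca2 replicate 2) to 0.14 (without replicate 1). MAGEA4 in MiaPaca2 minus Panc1 turned to -0.17 (3 MiaPaca2 arrays). Without 1 line, pancreatic minus colorectal ranged from -0.53 to 0.82 for PRAME, -0.39 to 0.27 for MAGEC2 and -0.32 to 0.082 for CTAG2. The causes were not tested.

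Named list genes were rerun in the alternative settings, and these reruns were added after seeing the data. The genes kept direction in all and lost their call in 109 of 1413 results, which also hold counts of called list genes. The fit with replicate number as a block and the fit without Panc1 arrays are not in these numbers. In the block fit 19 results lost their call, and in the fit without Panc1 arrays 3 did. DDX43, a member, was among them in both fits, and the rest were list genes. With quantile normalization the highest line changed to HT29 for MAGEA10 and to Capan2 for MAGEC1, and the other 6 kept theirs.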

Other observations

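Spermatid markers did not share the low level of the X-linked genes. Their line means averaged 0.042 in Capan2 to 0.390 in HPAC over 10 genes, close to the reference in every line.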
